A study of Mus musculus with 18 samples.

Results

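The genes described here encode 10 G protein-coupled receptors through which hormones, nutrients and nerves adjust insulin secretion: Glp1r, Gipr, Gcgr, Ffar1, Gpr119, Sstr3, Adra2a, Chrm3, Galr1 and Adcyap1r1. They were taken by gene symbol from a table of 54186 symbols, where all 10 were present, and all 10 passed the filter on low counts that 20244 genes passed. RNA came from pancreatic islets of 18 mice, with 1 library per mouse and 6 mice per genotype. All mice were on the FVB background and were 6 weeks old. WT mice carried no transgene, hIAPP mice carried human islet amyloid polypeptide and rIAPP mice carried the rodent peptide, both under the insulin II promoter. That promoter places either peptide in beta cells, with zygosity, copy number and founder lines not given in the sources used here. Nothing in the labels pools mice.

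Beta cells release insulin when glucose closes their potassium channels and calcium enters, and receptors of this kind raise or lower the amount released. Receptors that couple to the stimulatory protein Gs raise cyclic AMP and strengthen release, as the incretin receptors for GLP-1 and GIP do after a meal. Receptors that couple to Gq act through phospholipase C and calcium, and receptors that couple to Gi lower cyclic AMP and restrain release, as noradrenaline, somatostatin and galanin do.

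In rIAPP islets, 8 of the 10 receptor genes fell against WT, none rose and 2 did not pass. In hIAPP islets none of the 10 passed against WT in either direction, where 8.31% of all genes were called higher and 7.53% lower. Between the transgenic genotypes, 8 receptors were higher and 1 lower in hIAPP, and 1 did not pass. Ffar1 and Glp1r differed most in rIAPP, at 22.6% and 25.2% of the WT level in the fit. Over all genes tested, 26.8% passed for rIAPP against WT, 15.8% for hIAPP against WT and 27.6% for hIAPP against rIAPP, at an edgeR adjusted p under 0.05. Those called lower in rIAPP than in WT made up 12.6% of all genes and those called higher 14.1%. Between the transgenic genotypes, 13.5% of all genes were called higher and 14.1% lower in hIAPP. The median log2 fold change of the 10 receptors was -1.04 for rIAPP against WT, where the median of all genes was -0.01. It was -0.19 for hIAPP against WT (all genes -0.01). The genotypes share libraries between comparisons, so these counts are not independent of each other.

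**Figure D1:**
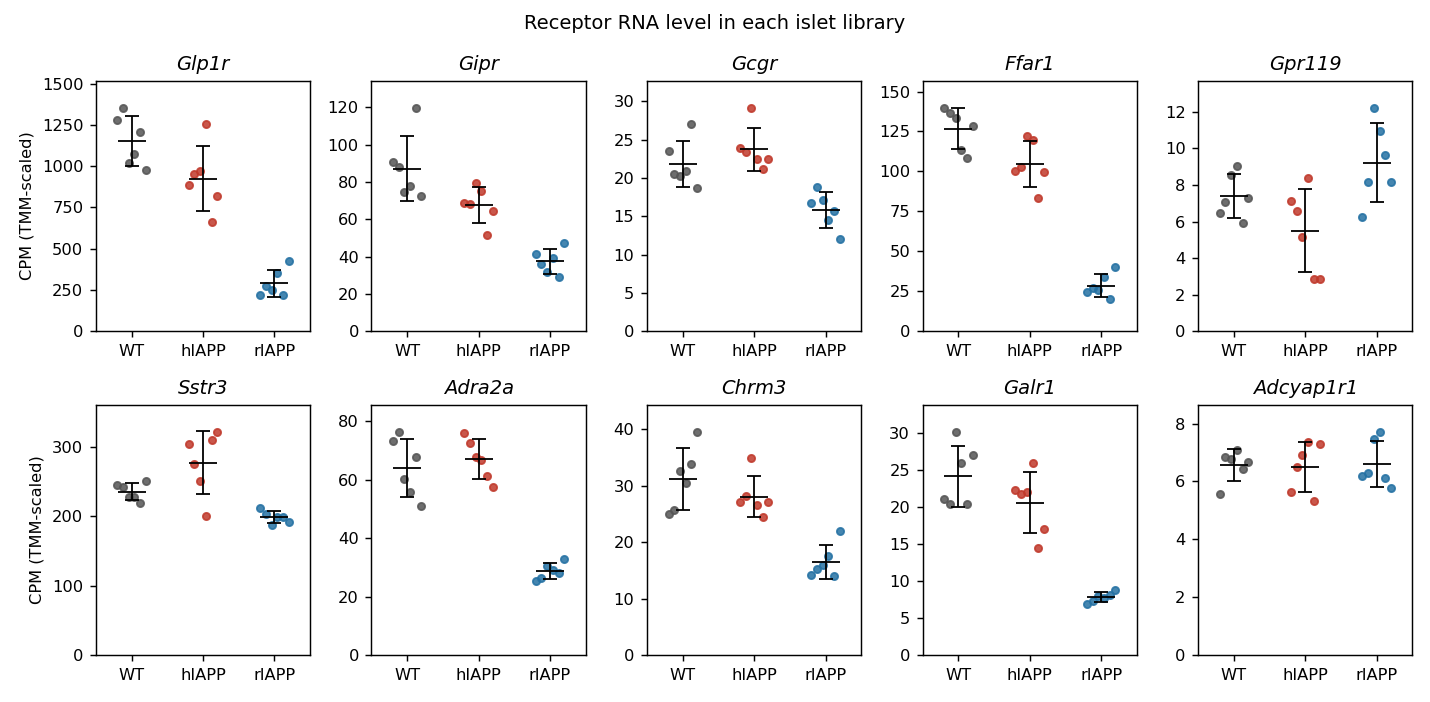
Each panel plots 1 receptor, with CPM (a gene's counts per M counts, M for mega, of the TMM-scaled library) from 0 on the vertical axis and genotype on the horizontal axis. Points are libraries, and the cross lines and bars are means and SD of 6 libraries. The rIAPP points of Glp1r, Gipr, Ffar1, Adra2a, Chrm3, Galr1 and Sstr3 lie below all WT points, while those of Adcyap1r1 cover the same range in the 3 genotypes.

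Libraries held 144.3 to 166.2 M counts in WT, 109.6 to 141.5 in hIAPP and 127.6 to 157.5 in rIAPP. The rIAPP libraries stood apart on the first principal component of log2 CPM (39.2 to 62.5, against -41.5 to -16.5 in the other genotypes). On the second, hIAPP 5 and hIAPP 6 were highest (61.8 and 60.6), followed by rIAPP 1 (43.5). Ins2, the main insulin gene of the mouse, marked the tissue in every library, with 53358 to 64284 CPM in WT, 24991 to 50255 in hIAPP and 25617 to 36274 in rIAPP. The 12 beta cell markers together took 12.3% to 14.5% of counts in WT, 7.79% to 12.4% in hIAPP and 7.83% to 10.6% in rIAPP. Their sum includes Iapp, which averaged 34206 CPM in WT, 25572 in hIAPP and 39144 in rIAPP. Whether reads of the rodent transgene were counted for Iapp was not tested. Of the 12 markers, 11 fell in rIAPP against WT, where 12.6% of all genes were called lower. Iapp did not pass there (edgeR adjusted p = 0.234). In hIAPP against WT, 7 fell, where 7.53% of all genes were called lower and no receptor was called. Gcg, Sst and Ppy, which define alpha, delta and PP cells, did not pass in any comparison. Acinar markers took 0.105% to 0.448% of counts in WT, 0.286% to 2.23% in hIAPP and 0.527% to 2.16% in rIAPP. In bulk RNA, fewer cells of a type and less RNA per cell cannot be told apart. The part of the beta cell and acinar shares in the receptor differences was not tested beyond the values given with each.

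Upstream sequence is shown for Glp1r and Ffar1, which differed most together, and for Adcyap1r1, which kept a similar level in all genotypes. Each stretch is the 150 bases before the first exon of GENCODE M21, read from RefSeq (GRCm38.p6), on the gene's own strand. RefSeq held an entry for 8 of the 10 receptors, and for 6 of them it covered this stretch. Capitals mark every match, on either strand, to the E-box CANNTG, the cyclic AMP response half-site TGACG, the MAF half-site TGCTGA, the homeodomain core TAAT and the GC box GGGCGG.
Glp1r, chr17:30901667-30901816, plus strand: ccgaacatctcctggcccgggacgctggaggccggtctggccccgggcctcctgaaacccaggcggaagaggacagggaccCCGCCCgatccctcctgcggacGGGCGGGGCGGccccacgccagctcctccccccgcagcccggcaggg
Ffar1, chr7:30861565-30861714, minus strand: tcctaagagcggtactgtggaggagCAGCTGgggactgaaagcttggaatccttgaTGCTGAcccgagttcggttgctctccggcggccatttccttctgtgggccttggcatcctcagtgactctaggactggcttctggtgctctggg
Adcyap1r1, chr6:55451828-55451977, plus strand: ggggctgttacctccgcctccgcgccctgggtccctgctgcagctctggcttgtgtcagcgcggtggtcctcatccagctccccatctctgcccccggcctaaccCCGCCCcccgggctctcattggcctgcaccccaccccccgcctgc
The Glp1r stretch held 3 GC boxes, of which the last and the one before it share a base, and no other match. The Ffar1 stretch held 1 E-box and 1 MAF half-site, and the Adcyap1r1 stretch held 1 GC box. For comparison, 32851 RefSeq promoter windows of the same length were read, placed by the RefSeq entries and not by GENCODE M21 exons. Of these windows, 28.6% held a GC box, 47.7% an E-box, 13.3% a cyclic AMP response half-site, 10.1% a MAF half-site and 37.8% the homeodomain core. The bases G and C made up 77.3% of the Glp1r stretch, 58.0% of the Ffar1 stretch and 72.7% of the Adcyap1r1 stretch, with a median of 54.0% over all windows. Of the other stretches read, that of Gcgr held 2 GC boxes, and those of Chrm3 and Gpr119 held no match. GC boxes thus stood upstream of Glp1r and Gcgr, which fell in rIAPP, and of Adcyap1r1, which did not pass, and Glp1r and Ffar1 had no kind of match in common.

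Levels of different receptors were compared as CPM per kilobase of exon. In WT islets Glp1r led with 198 ± 26.0 CPM per kb (SD, n = 6), followed by Sstr3 with 54.6 ± 2.90, Ffar1 with 30.3 ± 3.06 and Gipr with 25.05 ± 5.05. Adra2a (13.3 ± 2.07), Gcgr (8.32 ± 1.14), Galr1 (8.09 ± 1.38), Chrm3 (4.99 ± 0.878), Gpr119 (3.26 ± 0.535) and Adcyap1r1 (0.994 ± 0.0816) came after them. Ranges over the WT libraries overlapped between Ffar1 and Gipr, between Gcgr and Galr1, and between Chrm3 and Gpr119. The order was the same in hIAPP. In rIAPP, Glp1r (49.96 ± 14.2 CPM per kb) and Sstr3 (46.0 ± 2.04) overlapped, and Galr1 (2.61 ± 0.219) came ninth, just after Chrm3 (2.64 ± 0.477). Gipr (10.8 ± 1.93) stood before Ffar1 (6.84 ± 1.71) there, and Gcgr (6.04 ± 0.90) before Adra2a (5.94 ± 0.561). Gpr119 (4.07 ± 0.948) stood before Chrm3 and Galr1. From Gipr down to Galr1, each receptor overlapped the next in rIAPP.

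**Figure D2:**
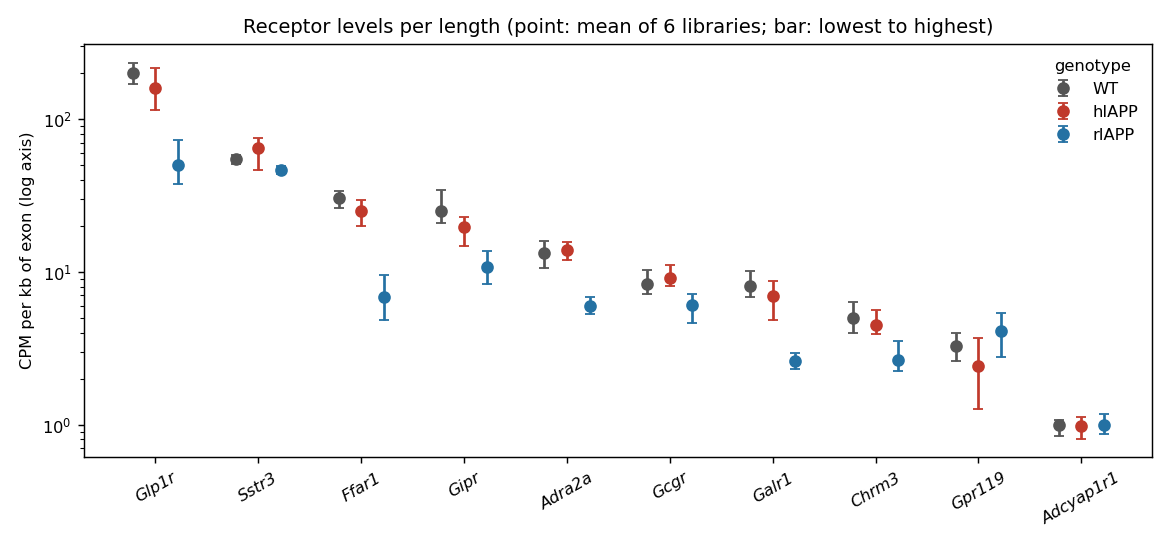
Level per length of each receptor in CPM per kb of exon on a log axis, ordered by the WT mean. Points are means of 6 libraries and bars run from the lowest to the highest library. Glp1r stands at 198 in WT and at 49.96 in rIAPP, next to Sstr3 at 46.0, and Adcyap1r1 is last in the 3 genotypes.

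The makeup of the receptor RNA differed as well. Glp1r made up 56.9% ± 2.63 of the summed per-length level of the 10 receptors in WT (SD, n = 6, range 53.3 to 60.4), 51.6% ± 5.47 in hIAPP (45.2 to 61.2) and 36.2% ± 5.58 in rIAPP (30.3 to 44.8). The 3 Gi-coupled receptors made up 22.001% ± 1.85 in WT (19.9 to 24.7), 28.3% ± 5.59 in hIAPP (19.5 to 35.5) and 40.6% ± 5.01 in rIAPP (33.2 to 46.1). The rIAPP ranges of both shares lay outside the WT ranges. The summed level of the Gi-coupled receptors itself was lower in rIAPP, at 54.5 ± 1.43 CPM per kb against 75.9 ± 3.13 in WT. Sstr3 alone made up 15.8% ± 1.58 of the receptor total in WT and 34.3% ± 4.71 in rIAPP, so that it carried most of the Gi-coupled share. The summed level itself was 347 ± 30.2 CPM per kb in WT, 306 ± 33.4 in hIAPP and 136 ± 16.9 in rIAPP.

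Positions are on GRCm38 and are gene spans of GENCODE M21. Among the Gs-coupled receptors, the class B hormone receptors Glp1r and Gipr fell strongly in rIAPP. Glp1r (chr17:30901817-30940791) encodes the receptor for GLP-1, the incretin that is the target of a major class of diabetes drugs. Its lowest, median and highest levels were 977, 1139 and 1353 CPM in WT, 661, 918 and 1257 in hIAPP and 217, 265 and 424 in rIAPP. The 6 rIAPP libraries lay below all 12 others, while hIAPP and WT overlapped. Against WT, Glp1r fell by 1.99 ± 0.17 in rIAPP, in log2 units (SE, 95% interval -2.33 to -1.64, edgeR adjusted p = 1.71e-08). In hIAPP it was 1.67 ± 0.16 higher than in rIAPP (edgeR adjusted p = 1.68e-07), and its difference from WT did not pass (-0.32 ± 0.16, edgeR adjusted p = 0.204).

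Gipr (chr7:19156061-19166127) encodes the receptor for GIP, the incretin of the upper gut. Its levels were 72.3, 83.0 and 119.8 CPM in WT, 51.6, 68.4 and 79.3 in hIAPP and 28.9, 37.7 and 47.4 in rIAPP (lowest, median, highest). WT 5 held the highest value, and rIAPP did not overlap either of the other genotypes. Gipr fell by 1.22 ± 0.13 in rIAPP, in log2 units (edgeR adjusted p = 5.62e-07). In hIAPP it was 0.86 ± 0.13 higher than in rIAPP (edgeR adjusted p = 4.41e-05). Against WT, hIAPP differed by -0.36 ± 0.13 (95% interval -0.63 to -0.09), which did not pass over all genes (edgeR adjusted p = 0.0649) but passed with DESeq2 (adjusted p = 0.0336).

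Gcgr (chr11:120530699-120538986) encodes the receptor for glucagon, the alpha cell hormone that also acts on neighbouring beta cells. Its levels were 18.7, 20.7 and 26.99 CPM in WT, 21.1, 23.0 and 29.1 in hIAPP and 12.0, 16.3 and 18.8 in rIAPP (lowest, median, highest). The highest rIAPP library, rIAPP 2, was just above the lowest WT library, WT 6, and rIAPP lay below all hIAPP libraries. Gcgr fell by 0.46 ± 0.10 in rIAPP, in log2 units (edgeR adjusted p = 0.00199) and was 0.59 ± 0.10 higher in hIAPP than in rIAPP (edgeR adjusted p = 2.22e-04). The call against WT was lost with an acinar score as a covariate (-0.33, edgeR adjusted p = 0.242) and with scaling to endocrine transcription factors (-0.04, edgeR adjusted p = 0.740).

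Gpr119 (chrX:48667979-48674478), a receptor for lipid amides, went the other way from most members. Its levels were 5.90, 7.17 and 9.06 CPM in WT, 2.86, 5.87 and 8.41 in hIAPP and 6.24, 8.90 and 12.2 in rIAPP (lowest, median, highest). Both hIAPP 5 and hIAPP 6 lay near 2.9 CPM (2.88 and 2.86), below the 5.16 to 8.41 CPM of the other hIAPP libraries. Gpr119 was lower in hIAPP than in rIAPP (log2 fold change -0.74 ± 0.23, edgeR adjusted p = 0.0186), and the groups overlapped. Without hIAPP 5 and hIAPP 6 the difference was -0.44 (edgeR adjusted p = 0.0694), and without rIAPP 3 it was -0.65 (edgeR adjusted p = 0.0516). Those hIAPP libraries were also apart on the second principal component. In the other genotypes, rIAPP 1 (43.5) and WT 5 (17.5) were highest on that component. They also held the lowest Gpr119 levels of their genotypes (6.24 and 5.90 CPM). The part of that component in the Gpr119 values was not tested. Against WT, neither hIAPP (-0.42 ± 0.23, edgeR adjusted p = 0.234) nor rIAPP (0.32 ± 0.23, edgeR adjusted p = 0.339) passed.

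Adcyap1r1 (chr6:55451978-55501451), the receptor for the neuropeptide PACAP, kept a similar level. It had 5.56, 6.72 and 7.10 CPM in WT, 5.33, 6.71 and 7.35 in hIAPP and 5.77, 6.24 and 7.72 in rIAPP (lowest, median, highest). The differences from WT were -0.01 ± 0.10 in hIAPP and 0.01 ± 0.10 in rIAPP, in log2 units (edgeR adjusted p = 0.951 and 0.972). The 95% intervals were -0.21 to 0.19 and -0.19 to 0.21.

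Both Gq-coupled receptors fell in rIAPP. Ffar1 (chr7:30857390-30861564) encodes the receptor for long-chain fatty acids, which enhance insulin release when glucose is high. Its levels were 109, 131 and 139.8 CPM in WT, 83.1, 101 and 122 in hIAPP and 20.3, 26.5 and 40.0 in rIAPP (lowest, median, highest). No rIAPP library came within reach of the other genotypes, and the lowest of those, hIAPP 5, was above the highest rIAPP library. Ffar1 fell by 2.15 ± 0.13 in rIAPP, in log2 units (95% interval -2.43 to -1.87, edgeR adjusted p = 3.20e-10). It was 1.87 ± 0.13 higher in hIAPP than in rIAPP (edgeR adjusted p = 1.81e-09). Between hIAPP and WT the difference did not pass (-0.28 ± 0.13, edgeR adjusted p = 0.162).

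Ffar1 has close neighbours on chromosome 7 that encode related receptors. Ffar3, a receptor for short-chain fatty acids, starts 1211 bases beyond the end of Ffar1 on the same strand in GENCODE M21. It averaged 9.22 ± 1.04 CPM in WT, 8.32 ± 1.60 in hIAPP and 1.74 ± 0.407 in rIAPP (SD, n = 6), and fell by 2.40 ± 0.15 in rIAPP, in log2 units (edgeR adjusted p = 3.20e-10). Ffar2, a further short-chain fatty acid receptor 33614 bases away, averaged 25.2 ± 2.78, 18.9 ± 4.57 and 18.8 ± 3.74 CPM in the same order and fell by 0.42 ± 0.14 in rIAPP (edgeR adjusted p = 0.0377). Cd22, a B cell gene 3837 bases on the other side of Ffar1, was chosen for its place after its values were seen. It averaged 0.673 ± 0.122 CPM in WT, 1.87 ± 0.546 in hIAPP and 0.273 ± 0.0523 in rIAPP. The 2 nearest genes were thus lower in rIAPP together with Ffar1, but Cd22 was higher in hIAPP than in WT (log2 1.48, edgeR adjusted p = 4.14e-05) while Ffar1 and Ffar3 did not pass there. Whether reads that run past the end of Ffar1 were counted for Ffar3 was not tested.

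Chrm3 (chr13:9875486-10360847) encodes the muscarinic receptor through which acetylcholine from nerves promotes insulin release, and acinar cells use it too. Its levels were 24.96, 31.5 and 39.6 CPM in WT, 24.4, 27.2 and 34.9 in hIAPP and 14.1, 15.6 and 22.02 in rIAPP (lowest, median, highest). The rIAPP libraries lay below all others. Their acinar marker share was above the WT range, and the part of acinar cells in the Chrm3 values was not tested. Chrm3 fell by 0.92 ± 0.12 in rIAPP, in log2 units (edgeR adjusted p = 7.05e-06) and was 0.76 ± 0.12 higher in hIAPP than in rIAPP (edgeR adjusted p = 6.42e-05). It differed from WT in hIAPP by -0.15 ± 0.12, which did not pass (edgeR adjusted p = 0.447).

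The Gi-coupled receptors fell in rIAPP by very different amounts. Galr1, a receptor for the neuropeptide galanin, had 20.4, 23.5 and 30.2 CPM in WT, 14.5, 21.9 and 25.9 in hIAPP and 6.88, 7.84 and 8.77 in rIAPP (lowest, median, highest). Adra2a (chr19:54044151-54048982), the alpha-2A adrenergic receptor for adrenaline and noradrenaline, had 51.0, 64.0 and 76.5 CPM in WT, 57.5, 67.3 and 76.1 in hIAPP and 25.4, 28.6 and 32.8 in rIAPP. Both genes had narrow rIAPP ranges that no WT or hIAPP library entered. The log2 fold change in rIAPP was -1.63 ± 0.13 for Galr1 and -1.16 ± 0.09 for Adra2a (edgeR adjusted p = 5.38e-09 and 1.20e-08). Relative to rIAPP, hIAPP was higher by 1.40 ± 0.13 for Galr1 and by 1.22 ± 0.09 for Adra2a (edgeR adjusted p = 4.79e-08 and 5.74e-09). Against WT, hIAPP differed by -0.23 ± 0.12 for Galr1 and 0.06 ± 0.09 for Adra2a, and neither passed (edgeR adjusted p = 0.227 and 0.723).

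Sstr3 (chr15:78537008-78544685), a somatostatin receptor of beta cells, was the Gi-coupled receptor with the smallest differences. It had 219, 236 and 252 CPM in WT, 201, 289 and 323 in hIAPP and 187, 199 and 212 in rIAPP (lowest, median, highest). The rIAPP range lay just below the WT range, and hIAPP 4 was the only hIAPP library under the highest rIAPP library. Sstr3 fell by 0.25 ± 0.09 in rIAPP, in log2 units (edgeR adjusted p = 0.0381), a call lost in 13 of 26 alternative analyses and turned to 0.17 (edgeR adjusted p = 0.124) when libraries were scaled to endocrine transcription factors. Those 13 include the analyses in which any 1 of WT 1, WT 2, WT 6, rIAPP 2, rIAPP 3, rIAPP 4, rIAPP 5 or rIAPP 6 was left out. Between hIAPP and rIAPP the difference was 0.48 ± 0.09 (edgeR adjusted p = 2.52e-04), lost with that scaling (0.20, edgeR adjusted p = 0.0780). Against WT, hIAPP was at 0.23 ± 0.09 (95% interval 0.05 to 0.41, edgeR adjusted p = 0.0716), and this passed in 6 of 26 alternatives, among them DESeq2 and the analysis without hIAPP 4 (0.32, edgeR adjusted p = 0.00250).

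**Figure D3:**
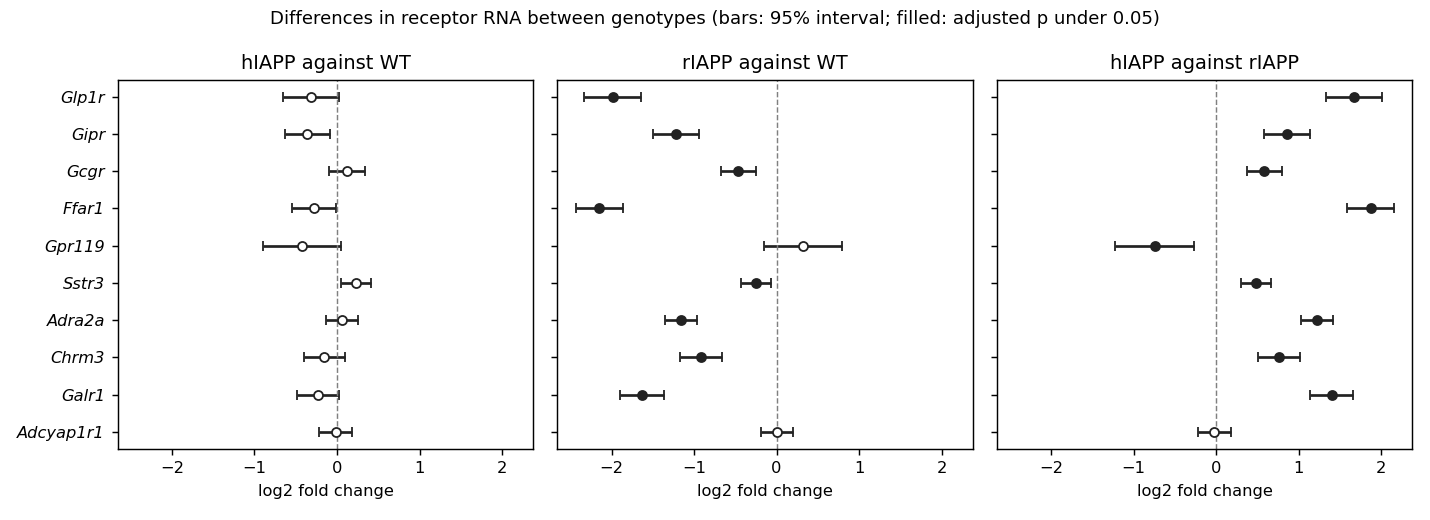
Log2 fold change of each receptor in the 3 comparisons, with 95% intervals and filled points where the edgeR adjusted p was under 0.05. No point is filled for hIAPP against WT, 8 are filled on the left for rIAPP against WT, and for hIAPP against rIAPP 8 are filled on the right and Gpr119 on the left.

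For hIAPP against WT, none of the 10 passed with edgeR, 3 had an unadjusted p under 0.05 (Gipr and Ffar1 lower, Sstr3 higher), 2 passed with DESeq2 and none with limma-voom. All 10 receptors overlapped between these genotypes, where 6.63% of all genes did not. In rIAPP, 7 receptors lay wholly below WT, where 6.75% of all genes did, and none lay wholly above, where 8.13% did. For hIAPP against rIAPP, 7 lay wholly above, where 6.52% of all genes did, and none wholly below, where 6.85% did.

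In rIAPP, 12.6% of all genes were called lower than in WT. The endocrine transcription factors used as an alternative scale (10 genes, among them Pax6, Isl1, Neurod1 and Pdx1) fell there in 8 cases. Pdx1 and Nkx6-1 fell most of the 10 (log2 -1.07 and -0.97), and both are also in the beta cell marker list. Setting the mean of the 10 factors equal across libraries put the median log2 fold change of all genes at 0.40 for rIAPP against WT. The median was then 0.13 for hIAPP against WT and -0.28 for hIAPP against rIAPP. Library totals alone put it at 0.10 for rIAPP against WT and at 0.11 for hIAPP against WT, where it was -0.01 for both with TMM. On the endocrine transcription factor scale, 6 receptors stayed lower in rIAPP than in WT. These were Ffar1 at -1.73, Glp1r at -1.58, Galr1 at -1.22, Gipr at -0.80, Adra2a at -0.75 and Chrm3 at -0.50. Gpr119 (0.74, edgeR adjusted p = 0.00608) and Adcyap1r1 (0.43, edgeR adjusted p = 0.00125) were called higher in rIAPP on the same endocrine scale. Relative to the median of all genes on that scale, Glp1r was at -1.98, Adcyap1r1 at 0.02 and Sstr3 at -0.23, and with TMM scaling Sstr3 was at -0.23 and Adcyap1r1 at 0.02 relative to the median as well.

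**Figure D4:**
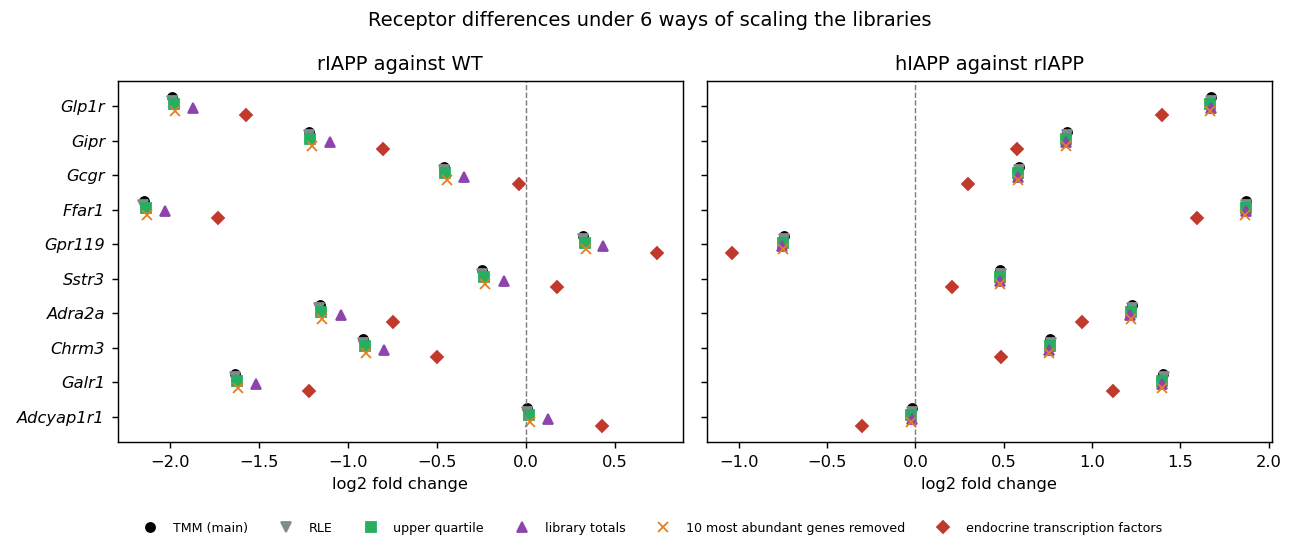
Log2 fold change of each receptor (horizontal axis) for rIAPP against WT and for hIAPP against rIAPP under 6 ways of scaling. Scaling to endocrine transcription factors moves all receptors to the right on the left side (Glp1r to -1.58, Sstr3 to 0.17) and to the left on the right side, while the other scales stay close to the main values.

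RNA of the proteins through which these receptors act was followed in lists chosen from textbook knowledge, with earlier results of these data known. For rIAPP against WT, 11 of 21 G protein subunit genes passed (5 higher, 6 lower, median -0.07), where 26.8% of all genes passed, 14.1% higher and 12.6% lower. Gnb4, a beta subunit, averaged 13.2 ± 0.987 CPM in WT and 24.6 ± 1.24 in rIAPP, and rose by 0.89 ± 0.06 (edgeR adjusted p = 1.28e-09). Gnao1, an alpha subunit of the Gi and Go family, fell by 0.37 ± 0.06 (edgeR adjusted p = 6.46e-05). Gng12, a gamma subunit, fell from 453 ± 53.1 to 189.9 ± 72.3 CPM (log2 -1.26 ± 0.19, edgeR adjusted p = 3.11e-05). For hIAPP against WT, 5 of the 21 passed (3 higher, 2 lower), where 15.8% of all genes did, and 2 passed when hIAPP 5 or hIAPP 6 was left out and 3 without WT 3 or WT 6. Gnai2, an inhibitory alpha subunit, went in opposite directions, with log2 fold changes of 0.24 ± 0.08 in hIAPP and -0.33 ± 0.08 in rIAPP (edgeR adjusted p = 0.0375 and 0.00274).

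Of 42 cyclic AMP pathway genes tested, 14 passed for rIAPP against WT (8 higher, 6 lower, median -0.02), where 26.8% of all genes passed. The genes with the smallest p rose: Pkia and Pkib, which encode inhibitors of protein kinase A, by 0.77 ± 0.07 each (edgeR adjusted p = 6.02e-08 and 1.20e-07), and Pde4d, a phosphodiesterase that breaks down cyclic AMP, by 0.71 ± 0.09 (edgeR adjusted p = 2.45e-06). Pkia averaged 14.9 ± 1.23 CPM in WT, 15.5 ± 1.09 in hIAPP and 25.4 ± 2.32 in rIAPP. Endothelial markers were higher in rIAPP than in WT in 10 of 10 cases (873 to 974 summed CPM, 702 to 791 in WT). Stellate and mesenchymal markers were higher in 8 of 10 (1385 to 2257, 794 to 1125 in WT), where 14.1% of all genes were called higher. The part of both in the rises of Gnb4, Pkia, Pkib and Pde4d was not tested. Rims2, which encodes a protein of the secretory release site, fell in both transgenic genotypes, with log2 fold changes of -0.16 ± 0.05 in hIAPP and -0.29 ± 0.05 in rIAPP (edgeR adjusted p = 0.0177 and 5.86e-05). For hIAPP against WT, 12 of the 42 passed (5 higher, 7 lower), where 15.8% of all genes did, with the phosphodiesterases Pde3a (0.56 ± 0.09), Pde1b (0.84 ± 0.14) and Pde1a (0.89 ± 0.15) and the adenylyl cyclase Adcy7 (0.98 ± 0.18) higher. That count was 7 without hIAPP 5 and hIAPP 6 and 2 with the acinar score as a covariate. The share of all genes under those settings is not given here. Macrophage markers were also higher in hIAPP (379 to 756 summed CPM, 141 to 165 in WT). So were stellate and mesenchymal markers in 8 of 10 cases, where 8.31% of all genes were called higher. The part of both in the hIAPP values of this list was not tested.

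The phospholipase C list, which serves Gq-coupled receptors, had 11 of 20 genes called for rIAPP against WT (3 higher, 8 lower, median -0.04), where 26.8% of all genes were called. Protein kinase C alpha and beta fell: Prkca from 112 ± 5.76 to 50.6 ± 6.79 CPM (log2 -1.15 ± 0.09, edgeR adjusted p = 3.55e-09) and Prkcb from 64.8 ± 3.80 to 24.9 ± 4.76 CPM (-1.38 ± 0.10, edgeR adjusted p = 1.54e-09). Dgkg, a diacylglycerol kinase, fell by 1.59 ± 0.11 and Itpr2, a calcium channel gated by inositol trisphosphate, fell by 0.57 ± 0.07 (edgeR adjusted p = 9.22e-10 and 2.87e-06). In hIAPP both kinases fell against WT too, with log2 fold changes of -0.32 ± 0.09 for Prkca and -0.29 ± 0.10 for Prkcb (edgeR adjusted p = 0.0153 and 0.0475), and the difference between hIAPP and rIAPP passed for each (log2 0.83 and 1.09, edgeR adjusted p = 3.28e-07 and 4.05e-08). Itpr2 went the opposite way in hIAPP and rose by 0.24 ± 0.07 (edgeR adjusted p = 0.0200). Of the 20 genes, 9 passed for hIAPP against WT (6 higher, 3 lower), where 15.8% of all genes did. The count was 4 without hIAPP 5, 5 without hIAPP 6, 2 without both, and 0 with the acinar score as a covariate. How many of all genes passed under those settings is not given here.

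Receptor desensitisation and RGS genes, which end a receptor's signal, had 10 of 27 called for rIAPP against WT (5 higher, 5 lower, median -0.05), where 26.8% of all genes were called. Grk5, a receptor kinase, fell from 45.5 ± 8.58 to 21.5 ± 2.39 CPM (log2 -1.08 ± 0.13, edgeR adjusted p = 1.84e-06), and Grk3 fell by 0.64 ± 0.06 (edgeR adjusted p = 1.93e-07). For hIAPP against WT, 5 of the 27 passed (3 higher, 2 lower), where 15.8% of all genes did, and 3 passed when any 1 of hIAPP 5, hIAPP 6, WT 2, WT 3 or WT 4 was left out. The calls with the smallest p rose: Rgs10 by 1.01 ± 0.12 and Rgs5 by 0.61 ± 0.10 (edgeR adjusted p = 1.19e-05 and 2.16e-04). Both are regulators that shorten G protein signals. Rgs5 is itself in the stellate and mesenchymal marker list used here. In hIAPP, 8 of 10 markers of that list and 11 of 13 macrophage markers were called higher, against 8.31% of all genes. The part of those cells in both rises was not tested. Grk5 fell by 0.50 ± 0.13 in hIAPP (edgeR adjusted p = 0.0101). Rgs10 also rose in rIAPP, by 0.40 ± 0.12 (edgeR adjusted p = 0.0164), while Rgs4, of the same family, had log2 fold changes of -0.23 ± 0.08 in hIAPP and 0.28 ± 0.08 in rIAPP (edgeR adjusted p = 0.0422 and 0.00868). For rIAPP against WT, calls numbered 5 (G protein list), 7 (cyclic AMP) and 4 (desensitisation) with the acinar score as a covariate. With scaling to endocrine transcription factors they numbered 17, 34 and 23, and that scaling put the median of all genes at 0.40. The share of all genes called under an alternative is not given here for any list, so these counts are not read as list results. Among 11 ligand genes tested, 1 passed for rIAPP against WT, where 26.8% of all genes did. This was Th, the tyrosine hydroxylase of catecholamine synthesis, which fell by 1.04 ± 0.14 (edgeR adjusted p = 6.91e-06). The ligand genes Gcg and Sst were at 0.04 ± 0.13 and -0.20 ± 0.12 in rIAPP and did not pass (edgeR adjusted p = 0.885 and 0.236).

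**Figure D5:**
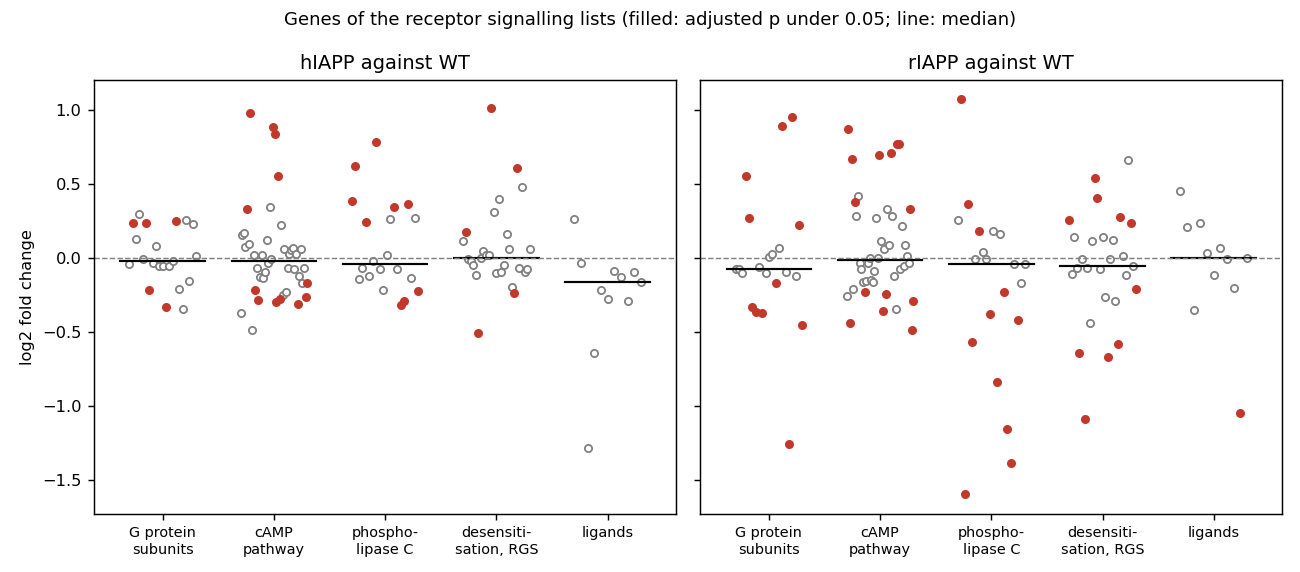
Log2 fold change against WT of each gene in 5 signalling lists, for hIAPP and for rIAPP. Filled points have an edgeR adjusted p under 0.05 and lines are list medians, which lie between -0.16 and 0.00. In rIAPP, Dgkg, Prkcb, Prkca, Gng12, Grk5 and Th are the filled points below -1.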

How the data were processed

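RNA of islets (165 ± 6 per mouse, RIN 8.4 to 9.5, per the labels' protocols) was made into ribosome-depleted TruSeq libraries. The deposited values are estimated counts per gene symbol, not normalised. The submitters' processing notes name STAR, HTSeq, GRCm38 and mm10, with versions, annotation and strand setting not given in the sources used here. Of the values above 0, 39.2% were not whole, and all were rounded. edgeR 4.0.16 (R 4.3.3) was run with TMM factors, filterByExpr and quasi-likelihood F tests, fitting the 18 libraries together. P-values were two-sided, with Benjamini-Hochberg adjustment over the 20244 genes kept. Levels are CPM with TMM-scaled totals, log2 CPM uses a prior count of 2, and the length of a gene is the union of its GENCODE M21 exons. No receptor shared exon bases with another gene there.

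Separate mice were the replicates, and depth precision covers counting error only. The receptors and lists were chosen with earlier results of these data known. The text names all receptors, up to 4 called genes with the smallest p per list and comparison, genes called in all 3 comparisons, and, for the 3 receptors with the smallest p over the 3 genotypes, the 3 genes of most similar pattern. Some marker genes are named as examples of their lists. The pipeline was tested on simulated data. Alternatives used DESeq2 1.42.0, limma 3.58.1 (voom), other scaling, filters, samples and covariates. Figures were drawn with matplotlib 3.10.9.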

Additional observations from a re-analysis of the deposited data

How the results depend on the processing

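Receptor counts for rIAPP against WT (8 called, 6 to 8 in the alternatives) kept within 1.5 times of the main count. So did those for hIAPP against rIAPP (9 called, 8 or 9). These counts ignore direction and which receptors passed. With endocrine scaling, rIAPP against WT lost Gcgr and Sstr3 and gained Gpr119 and Adcyap1r1, both called higher. For hIAPP against rIAPP, that scaling lost Sstr3 (0.20, edgeR adjusted p = 0.0780) and called Adcyap1r1 lower (-0.30, edgeR adjusted p = 0.0191). For hIAPP against WT the count of 0 became 2 with DESeq2, 1 with library totals alone, 1 with scaling to endocrine transcription factors and 1 with the stricter filter. With 1 library left out it was 0 to 1 for hIAPP against WT, 7 to 8 for rIAPP against WT and 8 to 9 for hIAPP against rIAPP. Of 780 alternative values of the receptors, 735 kept sign and side of the threshold, 18 lost a call, 10 gained one and 17 changed sign, of which 16 were Adcyap1r1, whose main values are near 0. Glp1r, Gipr, Ffar1, Adra2a, Chrm3 and Galr1 kept their calls in all 26 alternatives for rIAPP against WT and for hIAPP against rIAPP. Adcyap1r1 changed sign for hIAPP against WT with library totals (0.10), endocrine scaling (0.12), the stricter filter (0.0015), without hIAPP 5 and hIAPP 6 (0.0141) and with 1 library left out (-0.0568 to 0.0445 over all such analyses). The Adcyap1r1 log2 fold change, rIAPP against WT, changed sign with the acinar score (-0.0864) or mouse number (-0.01444) as a covariate and with 1 library left out (-0.0439 to 0.0505). For hIAPP against rIAPP it did so with 1 library left out (-0.0595 to 0.0305). Sstr3 changed sign for rIAPP against WT with endocrine scaling (0.17), a scale that moves all genes alike: relative to the median of all genes it was at -0.23 there and with TMM. The cause of the sign changes of Adcyap1r1 under covariates or left-out libraries was not tested. Of 468 alternative counts of the signalling and receptor lists, 37 moved by over 1.5 times: 29 down, of which 9 had the acinar score as a covariate 4 left out both hIAPP 5 and hIAPP 6, 3 left out hIAPP 5 alone, 3 left out hIAPP 6 alone, 2 left out WT 3 and 1 each left out WT 2, WT 4 or WT 6, and 8 up, of which 7 had endocrine scaling. The order of receptors by level per kb was the same with the longest transcript as length. No paired analysis was made. The labels give each mouse its own number, with litter, pairing and batch not given in the sources used here.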

Other observations

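Other G protein-coupled receptors of islet cells, 47 tested, went in both directions. Their list was chosen from textbook knowledge, with earlier results of these data known. Of them, 11 rose and 11 fell in rIAPP against WT, where 26.8% of all genes passed. For hIAPP against WT, 7 rose and 5 fell, where 15.8% of all genes passed. With the acinar score as a covariate, 11 passed for rIAPP and 5 for hIAPP, and the share of all genes with it is not given here. Gabbr2, a subunit of the GABA-B receptor, averaged 82.8 ± 10.6 CPM in WT, 96.3 ± 5.27 in hIAPP and 22.9 ± 3.55 in rIAPP (SD, n = 6), and fell by 1.85 ± 0.09 in rIAPP, in log2 units (SE, edgeR adjusted p = 1.16e-11). Adora1, an adenosine receptor, averaged 39.4 ± 2.73, 28.4 ± 4.64 and 10.7 ± 2.44 CPM in the same order. It fell in both transgenic genotypes, with log2 fold changes of -0.47 ± 0.13 in hIAPP and -1.88 ± 0.13 in rIAPP (edgeR adjusted p = 0.0147 and 1.26e-09). Crhr1, a receptor for corticotropin-releasing hormone, was low in all genotypes and fell from 0.794 ± 0.170 CPM in WT to 0.202 ± 0.0353 in hIAPP and 0.123 ± 0.0534 in rIAPP (edgeR adjusted p = 6.11e-05 and 4.11e-07). Cxcr4, a chemokine receptor that immune cells also carry, rose in hIAPP from 4.01 ± 0.497 to 7.56 ± 0.829 CPM (log2 0.92 ± 0.10, edgeR adjusted p = 2.72e-06), and Npy1r, a neuropeptide Y receptor, from 2.36 ± 0.660 to 4.73 ± 0.875 (1.004 ± 0.16, edgeR adjusted p = 2.89e-04). Macrophage markers were higher in the same hIAPP libraries, and their part in the Cxcr4 value was not tested.

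The genes whose log2 CPM, centred on each gene's mean, followed Ffar1 most closely over the 18 libraries were Glp1r (root mean square difference 0.17), its neighbour Ffar3 (0.21) and Acvr1c (0.22). For Adra2a they were Cdon (0.13), Bend7 (0.14) and Sirpa (0.15), and for Galr1 they were Hadh (0.17), Ank (0.19) and Osbpl10 (0.19). These are descriptions over libraries that share their genotypes. Hadh averaged 474 CPM in WT, 420.9 in hIAPP and 179 in rIAPP. None of the 30 sets of 6 libraries (10 receptors in 3 genotypes) had a library beyond Dixon's critical value at the 95% level, the nearest being Gcgr in hIAPP 3 (0.619, 29.1 CPM).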
